A study of Mus musculus with 16 samples.

Results

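The insulin-like growth factor (IGF) genes measured here were the ligands Igf1 and Igf2, the receptor Igf1r and the binding proteins Igfbp2 to Igfbp7. They were chosen by symbol: every probe set (a group of short oligonucleotides that reports on 1 transcript) whose only gene symbol was one of these 9 was kept. That gave 26 of the 45101 probe sets on the array and 9 of the 18193 genes named by a single symbol, with 4 probe sets for Igf1, 2 for Igf2, 5 for Igf1r, 6 for Igfbp4, 3 for Igfbp7, 2 each for Igfbp3 and Igfbp5, and 1 each for Igfbp2 and Igfbp6. No filter on low values was applied, so all 26 were tested. RNA came from the thoracic mammary gland of female FVB/N mice homozygous for an oncogene, SV40 large Tag, driven by the C3(1) fragment of the rat prostatic steroid binding protein promoter. Weaning was at 21 days. The groups were isolated mice at 20 weeks, grouped mice at 20 weeks, isolated mice at 15 weeks and grouped mice at 15 weeks, with 4 Affymetrix arrays in each. Isolated mice lived 1 to a cage, and every group carried the transgene and was sampled in estrus, so no group lacks the oncogene. Whether each array held its own animal is not stated, so the spread behind the p-values may be partly technical.

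IGF ligands bind Igf1r, a tyrosine kinase receptor that signals through insulin receptor substrates and PI3 kinase. The binding proteins hold the ligands outside the cell, and proteases such as pregnancy-associated plasma protein A release them again. In the mammary gland, Igf1 is made largely in the stroma in response to growth hormone and drives the growth of ducts, and Igfbp5 is known for its rise when the gland involutes.

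Values are deposited log2 levels, so a difference of 1 is a doubling. Array medians were 8.31 to 8.34 at 20 weeks and 8.09 to 8.11 at 15 weeks. The median probe set stood 0.24 higher at 20 weeks, and the median Affymetrix control probe set 0.14 higher. The 2 ages therefore lay on different scales. No label records a processing run, so whether the ages were also processed apart is not known, and if they were, age and run cannot be told apart. In whole-gland RNA, fewer cells of a type and less RNA per cell cannot be told apart either. Luminal and basal epithelial markers averaged 11.11 to 11.62 and 10.27 to 10.96 over the arrays, and skeletal muscle markers 12.83 to 14.14.

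Igf1 was lower in every isolated array than in any grouped array at 15 weeks, on each of its 4 probe sets, but the difference did not pass the test across all probe sets. Igfbp4, which binds IGFs and mostly restrains them, showed the same arrangement on 5 of 6 probe sets with smaller differences. No other member had groups apart, and in none was every isolated array the higher one (2.22% of all probe sets). With limma's moderated test and Benjamini-Hochberg adjustment over 45037 probe sets, 0 of the 26 member probe sets had an adjusted p under 0.05, against 0.00888% of all probe sets (4 of 45037).

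Igf1 read 10.37, 10.48, 10.40 and 10.58 in isolated mice on probe set 1437401_at, against 10.87, 11.15, 11.37 and 11.06 in grouped mice. The highest isolated array lay below the lowest grouped array. The difference was -0.66 ± 0.10 (SE, n = 4 each), a 1.58-fold lower level, with a limma adjusted p of 0.122. Probe set 1434413_at gave Igf1 values of 9.79, 9.92, 9.77 and 10.02 in isolated mice, against 10.19, 10.75, 11.00 and 10.51 in grouped mice. That was the widest gap of the 4, at -0.74 ± 0.15 (SE; limma adjusted p = 0.191). On 1419519_at and 1452014_a_at the differences were -0.61 and -0.51, with limma adjusted p of 0.23 and 0.336, and in both the groups stood apart. The 4 probe sets read the same arrays and moved together (Pearson r of 0.93 to 0.97 over the 16 arrays, each age centred), so they are 1 gene's evidence counted 4 times. The call depended on single arrays. Without grouped replicate 1, Igf1 passed on 1437401_at (-0.74, limma adjusted p = 0.0344) and 1434413_at (-0.88, limma adjusted p = 0.039), and without grouped replicate 3 it passed on 1437401_at (-0.57, limma adjusted p = 0.0427).

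Igfbp4 read 12.01, 12.04, 12.09 and 12.02 in isolated mice on probe set 1423756_s_at, against 12.18, 12.53, 12.41 and 12.32 in grouped mice. The isolated arrays lay within a narrow band below all grouped arrays. The difference was -0.32 ± 0.08 (SE, n = 4 each; limma adjusted p = 0.325). Over the 6 Igfbp4 probe sets the difference ran from -0.34 to -0.21 and the limma adjusted p from 0.31 to 0.499. The exception to the separation was 1437405_a_at, where isolated replicate 4 at 12.91 overlapped grouped arrays at 12.83 to 13.00. Probe sets marked _s_at or _x_at can also read related transcripts, and 3 of the 6 Igfbp4 probe sets carry such a mark.

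All 9 separated probe sets belonged to Igf1 and Igfbp4. They made up 34.6% of the member probe sets (2 of 9 genes), where every isolated array was lower than every grouped array in 3.17% of all probe sets. An unadjusted p under 0.05 was reached by 10 member probe sets, again of these 2 genes (38.5%, against 9.71% of all). The median difference of the 26 was -0.18 and 18 were negative, against a median of -0.0048 and 52.2% negative over all probe sets. The 18 included all 4 Igf1 and all 6 Igfbp4 probe sets, and the 8 positive ones included all 5 of Igf1r. Probe sets of 1 gene are not separate evidence, so these counts do not show a shift of the whole family.

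Macrophage and fibroblast markers read lower in the same isolated mice, while 6 of 6 skeletal muscle and 3 of 6 endothelial markers had positive differences. All 7 of 7 macrophage markers had negative differences (median -0.40), and the mean macrophage level was 10.23 to 10.68 in isolated mice and 10.78 to 10.95 in grouped mice. Fibroblast markers were negative in 7 of 7 (median -0.18), with mean levels of 12.22 to 12.55 in isolated mice and 12.50 to 12.71 in grouped mice. The macrophage ranges did not overlap and the fibroblast ranges did. None of these markers passed the limma test (6 macrophage and 3 fibroblast markers had an unadjusted p under 0.05). The gap between the 3' and 5' Gapdh control probe sets, which widens as RNA degrades, was -0.03 to 0.02 in isolated mice and -0.09 to -0.03 in grouped mice. With it as a covariate the Igf1 differences were -0.56 to -0.31 and the Igfbp4 differences -0.21 to -0.13, all with a limma adjusted p of 1. The gap itself barely overlapped between the housings, so this fit could hardly separate housing from RNA quality. Over all probe sets, 1486 had an unadjusted limma p under 0.05 with the covariate, against 4371 without it. The part of these cell types and of RNA quality in the Igf1 and Igfbp4 differences was not tested further.

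Because Igf1 and Igfbp4 varied together and Igfbp6 differed most with age, the 250 bases before a start that RefSeq's promoter table lists for each of these 3 genes are shown, on the plus strand of GRCm38.p6, with TATAAA or its reverse complement in capitals. The windows are chr10:87860861-87861110 for Igf1, chr11:99040994-99041243 for Igfbp4 and chr15:102143936-102144185 for Igfbp6. The Igf1 and Igfbp4 windows lie inside the gene's annotated span, and the Igfbp6 window ends at the base before it.
Igf1: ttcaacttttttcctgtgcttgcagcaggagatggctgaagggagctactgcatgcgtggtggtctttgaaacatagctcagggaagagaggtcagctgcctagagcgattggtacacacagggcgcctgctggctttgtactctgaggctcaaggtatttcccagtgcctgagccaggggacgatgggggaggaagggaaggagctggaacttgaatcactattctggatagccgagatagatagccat
Igfbp4: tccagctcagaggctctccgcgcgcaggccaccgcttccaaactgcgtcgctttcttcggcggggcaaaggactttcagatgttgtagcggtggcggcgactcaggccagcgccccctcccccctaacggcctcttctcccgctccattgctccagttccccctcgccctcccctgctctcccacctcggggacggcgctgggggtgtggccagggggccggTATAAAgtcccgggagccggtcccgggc
Igfbp6: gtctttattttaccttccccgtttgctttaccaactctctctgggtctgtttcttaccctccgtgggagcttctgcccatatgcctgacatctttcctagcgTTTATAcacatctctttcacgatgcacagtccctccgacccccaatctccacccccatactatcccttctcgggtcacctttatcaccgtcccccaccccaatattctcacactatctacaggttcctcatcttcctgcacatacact
The Igfbp4 window held 1 TATAAA on the gene's strand, the Igfbp6 window held 1 on the opposite strand, and the Igf1 window held none. Searched on both strands, TATAAA occurred in 12.4% of 32851 mouse windows of the same length. The GC box GGGCGG (32.7% of windows) and TTCNNNGAA, the letters that STAT factors bind (7.02% of windows), occurred in none of the 3. All 9 genes had entries, with 13 windows in all. A match or its absence describes these letters only.

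**Figure D1:**
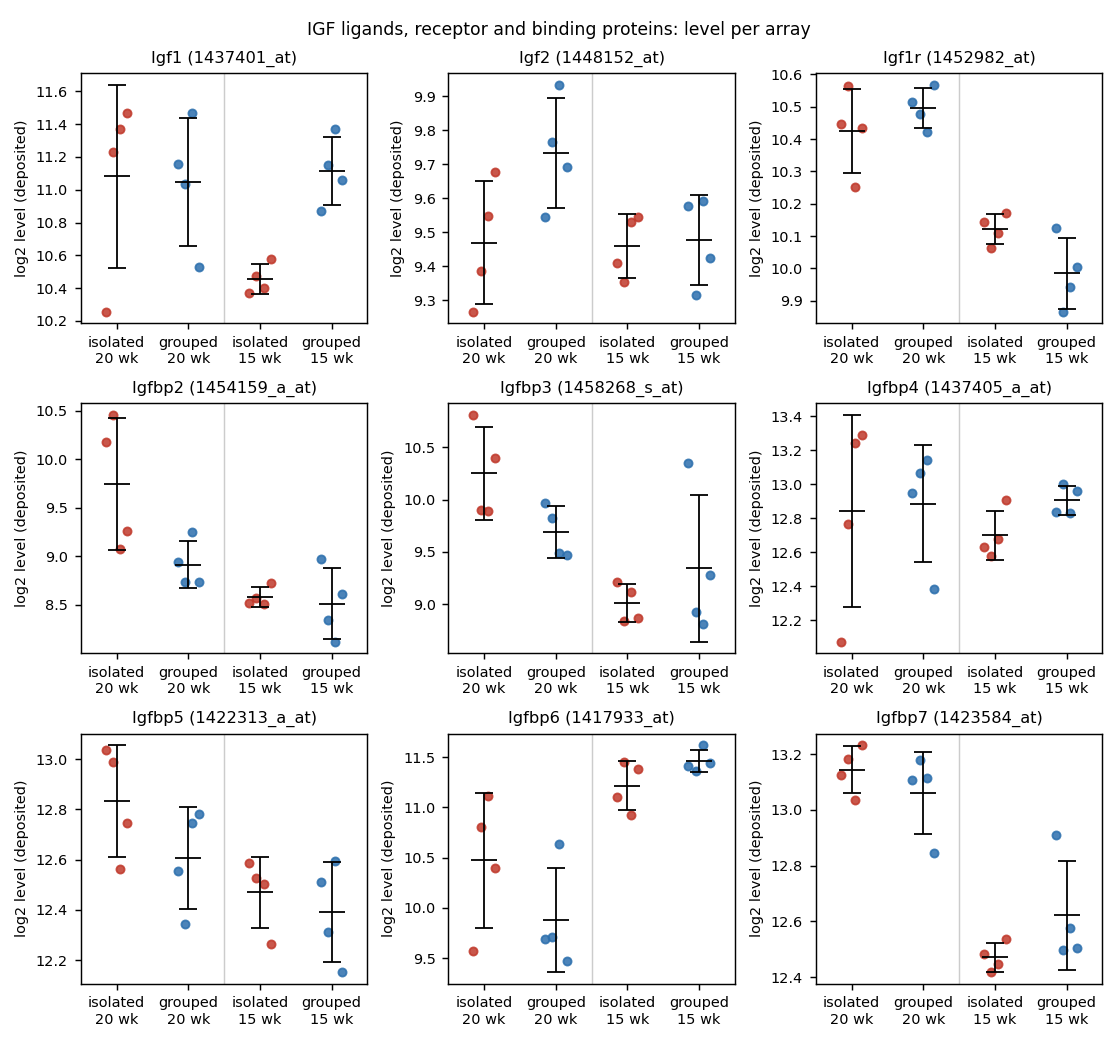
Deposited log2 level (vertical axis) in each of the 4 groups for the highest-reading probe set of each gene. Points are arrays, and bars are mean ± SD (n = 4). At 15 weeks Igf1 lies between 10.37 and 10.58 in isolated mice and between 10.87 and 11.37 in grouped mice, while at 20 weeks the groups overlap in all 9 panels.

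The other members did not separate by housing at 15 weeks. Igf2, the fetal growth ligand, differed by -0.02 on 1448152_at and 0.15 on 1415931_at, a dim probe set whose 16 arrays lay between 6.79 and 7.47, near the lower quartile of the array. Igf1r differed by 0.02 to 0.14 on its 5 probe sets. Igfbp3, the main carrier of IGFs in serum, read 8.86, 8.44, 8.74 and 8.56 in isolated mice on 1423062_at, against 10.16, 8.50, 8.50 and 8.70 in grouped mice. Its difference of -0.32 ± 0.31 (SE) rested on grouped replicate 1, and without that array it was 0.08. On the second Igfbp3 probe set, 1458268_s_at, the difference was -0.33 with that array and 0.01 without it. With the Gapdh covariate both Igfbp3 differences grew, to -1.13 on 1423062_at and -0.99 on 1458268_s_at. Igfbp2 (0.07), Igfbp5 (0.08 and -0.12), Igfbp6 (-0.24) and Igfbp7 (-0.15, -0.12 and -0.10) all had a limma adjusted p of at least 0.524.

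At 20 weeks no member separated isolated from grouped mice (every isolated array was lower in 1.88% of all probe sets and higher in 2.02%), and Igf1 spread widely within each group. The largest differences, all positive, were in Igfbp2, Igfbp6 and Igfbp3. By limma 0 of 26 member probe sets passed, against 0.00888% of all probe sets (4 of 45037), and 4 reached an unadjusted p under 0.05 (15.4%, against 7.88% of all).

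Igfbp2 read 10.18, 10.46, 9.07 and 9.26 in isolated mice, against 8.94, 8.74, 9.25 and 8.73 in grouped mice. Isolated replicates 1 and 2 were high, and the other 2 isolated arrays lay close to grouped replicate 3. The difference was 0.83 ± 0.29 (SE, n = 4 each; 1.77-fold higher in isolated mice; limma adjusted p = 0.59). Igfbp3 on 1423062_at read 11.02, 10.12, 10.15 and 10.58 in isolated mice, against 10.32, 10.06, 9.62 and 9.52 in grouped mice. The groups overlapped, and the differences were 0.59 here and 0.56 on 1458268_s_at (limma adjusted p = 0.616 and 0.609). Igfbp6, a binding protein that prefers IGF2, read 9.57, 10.81, 11.12 and 10.40 in isolated mice, against 9.70, 9.71, 10.63 and 9.47 in grouped mice. Its difference of 0.60 ± 0.34 (SE) had a limma adjusted p of 0.678. Igf2 on 1448152_at was the 1 other member with an unadjusted p under 0.05, at -0.26 ± 0.11 (SE; limma adjusted p = 0.623), with 9.27, 9.39, 9.55 and 9.68 in isolated mice and 9.54, 9.76, 9.93 and 9.69 in grouped mice.

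Igf1 read 10.25, 11.23, 11.37 and 11.47 in isolated mice on 1437401_at, against 11.16, 11.03, 11.47 and 10.53 in grouped mice at 20 weeks. Isolated replicate 1 and grouped replicate 4 were the low arrays. The same 2 arrays were lowest in their groups on all 6 Igfbp4 probe sets, for example 11.07 and 11.41 on 1423756_s_at. Differences were -0.10 to 0.14 for Igf1 and -0.04 to 0.14 for Igfbp4, with SE of 0.19 to 0.37. Those 2 arrays also had the lowest fibroblast marker levels of their groups, 11.90 in the isolated array (12.70 to 12.84 in the other isolated arrays) and 11.60 in the grouped array (12.08 to 12.99 in the other grouped arrays). Macrophage markers read 10.39 in isolated replicate 1, against 11.06 to 11.46 in the other isolated arrays. They read 9.85 in grouped replicate 4 and also in grouped replicate 2, whose Igf1 was not low (11.03), and 10.38 and 11.40 in the other grouped arrays. Isolated replicate 1 also had the lowest adipocyte (11.19), luminal (11.12), basal (10.51), endothelial (8.63) and skeletal muscle (12.83) marker levels of its group. Its keratinocyte level (7.97) was not the lowest. Grouped replicate 4 had the lowest keratinocyte level of its group (7.87), but not the lowest level of these other lists. Of the remaining members, Igf1r differed by -0.09 to 0.03, Igfbp5 by 0.23 and -0.01, and Igfbp7 by 0.08, -0.08 and -0.01.

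**Figure D2:**
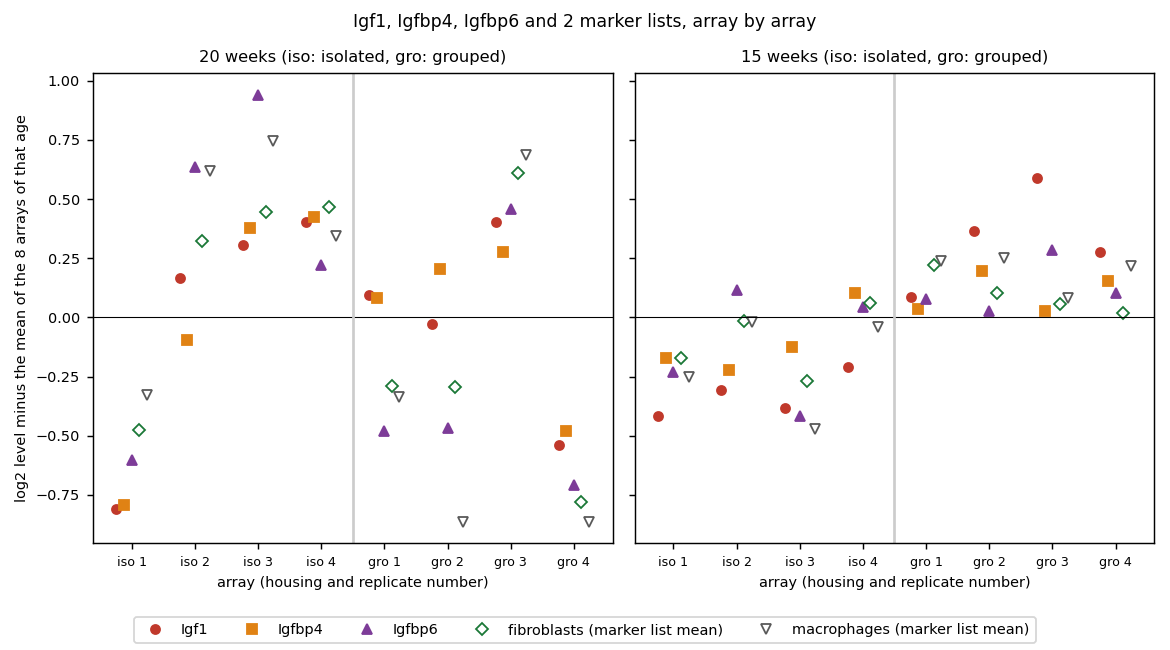
Deposited log2 level of Igf1, Igfbp4 and Igfbp6 (filled symbols) and mean level of the fibroblast and macrophage marker lists (open symbols), each minus its mean over the 8 arrays of that age, for every array at 20 weeks (left) and 15 weeks (right). At 20 weeks isolated replicate 1 and grouped replicate 4 lie below 0 for all 5 quantities, and at 15 weeks Igf1 is below 0 in every isolated array and above 0 in every grouped array.

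At 20 weeks, fibroblast and macrophage markers were positive in 7 of 7 each (median differences 0.36 and 0.60) and adipocyte markers negative in 6 of 6 measured (median -0.81), none passing the limma test (1 fibroblast, 2 macrophage and 4 adipocyte markers had an unadjusted p under 0.05). Mean adipocyte levels were 11.19 to 12.25 in isolated mice and 12.25 to 12.66 in grouped mice. Median differences were -0.22 for luminal, -0.25 for basal, -0.31 for endothelial, -0.51 for muscle and 0.11 for keratinocyte markers, none passing. At 15 weeks they were 0.13 for luminal, 0.07 for basal, 0.05 for endothelial, 0.07 for muscle, -0.02 for keratinocyte and -0.07 for adipocyte markers, again with none passing. The part of these cell types in the Igfbp2, Igfbp3 and Igfbp6 differences was not tested.

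**Figure D3:**
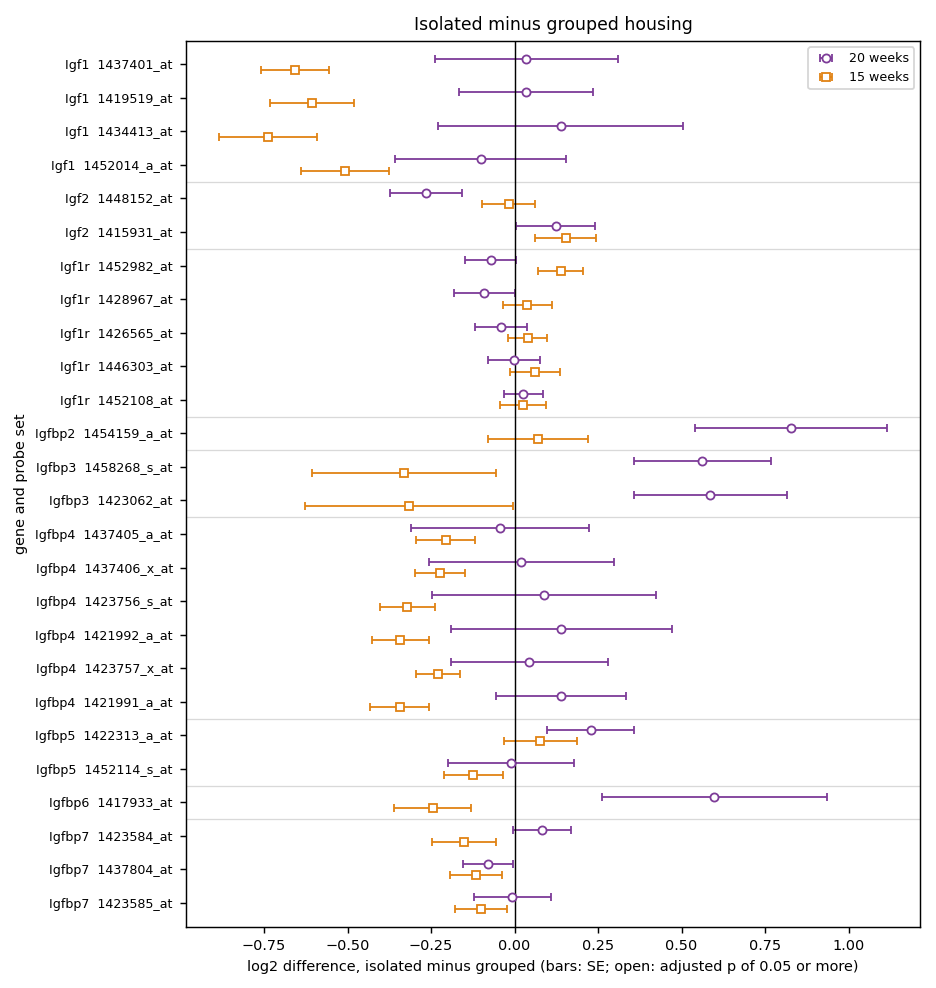
Difference in log2 level, isolated minus grouped (horizontal axis, bars are SE), for all 26 probe sets at 20 weeks (circles) and 15 weeks (squares). Open symbols mark an adjusted p of 0.05 or more, and all are open. The 4 Igf1 probe sets lie between -0.74 and -0.51 at 15 weeks and between -0.10 and 0.14 at 20 weeks.

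The housing difference at 20 weeks minus that at 15 weeks was tested directly on all 16 arrays. By limma 0 of 26 member probe sets passed, against 0.00666% of all probe sets (3 of 45037), and 6 had an unadjusted p under 0.05 (23.1%, against 11.5% of all). The interaction was 0.41 to 0.88 for Igf1, with the smallest adjusted p of all members on 1419519_at (0.64 ± 0.26, SE; limma adjusted p = 0.347). It was 0.89 and 0.90 for Igfbp3, 0.84 for Igfbp6, 0.76 for Igfbp2 and 0.16 to 0.48 for Igfbp4. In all, 20 of 26 were positive with a median of 0.24, against a median of -0.01 over all probe sets. The 20 included all 4 Igf1 and all 6 Igfbp4 probe sets, which are not separate evidence within a gene. The housing difference in Igf1 was thus not shown to differ between the ages.

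The age comparisons used all 16 arrays brought to 1 distribution by quantile normalization, and values in them are on that scale. In isolated mice, 9 of 26 member probe sets from 7 genes passed, 5 higher and 4 lower at 20 weeks. That share, 34.6%, was below the background, where 49.7% of all probe sets passed, 26.2% higher and 23.5% lower. In grouped mice, 12 of 26 from 5 genes passed (46.2%), 3 higher and 9 lower, against 38.1% of all, 19.7% higher and 18.4% lower. Any difference in processing between the ages, which no label records, could not be told apart from age.

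Markers of several cell types moved with age. White adipocyte markers fell in 6 of 6 genes in both housings, with a median difference of -1.55 in isolated mice and -0.69 in grouped mice. Their mean deposited levels were 11.19 to 12.25 in isolated and 12.25 to 12.66 in grouped mice at 20 weeks, and 12.81 to 13.04 in isolated and 12.68 to 13.29 in grouped mice at 15 weeks. Skeletal muscle markers fell in 5 of 6 genes in isolated mice (median -0.64) and in 0 of 6 in grouped mice by limma (median 0.02; 0 at an unadjusted p under 0.05). Endothelial markers fell in 4 of 6 genes in isolated mice (median -0.66) and 2 of 6 in grouped mice (median -0.20). Of 6 luminal markers, 1 rose and 3 fell in isolated mice (median -0.29), and 3 rose and 1 fell in grouped mice (median 0.06). Of 6 basal markers, 2 rose and 3 fell in isolated mice (median -0.29), and 2 rose in grouped mice (median 0.16). In isolated mice 3 of 7 macrophage markers rose, and 1 of 4 keratinocyte markers rose in each housing. Of all probe sets, 26.2% rose and 23.5% fell in isolated mice, and 19.7% rose and 18.4% fell in grouped mice. With lists this short, counts near those shares show no change particular to a cell type. The part of these cell types in the member differences with age was not tested.

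Igfbp6 had the largest fall of any member in both housings. In isolated mice it read 9.46, 10.68, 11.03 and 10.20 at 20 weeks, against 11.33, 11.59, 11.10 and 11.47 at 15 weeks (-1.03 ± 0.28, SE; 2.04-fold lower; limma adjusted p = 0.0122). In grouped mice it read 9.58, 9.56, 10.50 and 9.35 at 20 weeks, against 11.50, 11.47, 11.74 and 11.41 at 15 weeks. The groups stood far apart, at -1.78 ± 0.21 (SE; 3.44-fold lower; limma adjusted p = 0.00037). Igfbp6 passed in both housings in each alternative that was run, at -1.26 to -0.74 in isolated mice and -2.03 to -1.58 in grouped mice.

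Igfbp3 rose in isolated mice. On 1423062_at it read 10.90, 9.99, 10.06 and 10.39 at 20 weeks, against 9.00, 8.56, 8.88 and 8.66 at 15 weeks, every later array being above every earlier one. The difference was 1.56 ± 0.19 (SE; 2.95-fold higher; limma adjusted p = 0.000148), and on 1458268_s_at it was 0.97 ± 0.19 (limma adjusted p = 0.00229). In grouped mice Igfbp3 on 1423062_at read 10.19, 9.90, 9.49 and 9.40 at 20 weeks, against 10.27, 8.63, 8.62 and 8.77 at 15 weeks. Replicate 1 at 15 weeks was the array that overlapped. The differences of 0.67 and 0.11 had limma adjusted p of 0.149 and 0.799, and without that array they were 1.07 (adjusted p = 0.00228) and 0.44 (adjusted p = 0.0393) by limma.

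Igfbp2 rose in isolated mice, with 10.05, 10.33, 8.96 and 9.11 at 20 weeks, against 8.64, 8.69, 8.64 and 8.83 at 15 weeks (0.91 ± 0.27, SE; limma adjusted p = 0.0181). In grouped mice its difference was 0.18 ± 0.17 (SE; limma adjusted p = 0.446). Igfbp7, a related protein with low affinity for IGFs that is abundant in vessel walls, rose in isolated mice on 2 of 3 probe sets, by 0.55 ± 0.06 on 1423584_at and 0.37 ± 0.07 on 1423585_at (SE; limma adjusted p = 0.00014 and 0.00132). In grouped mice 1423584_at rose by 0.36 ± 0.10 (SE; limma adjusted p = 0.0201), and with arrays centred on their medians instead it was 0.21 with an adjusted p of 0.169 by limma. The third Igfbp7 probe set, 1437804_at, differed by -0.02 in isolated mice and -0.05 in grouped mice. Igfbp5 passed in neither housing, at 0.24 and 0.06 in isolated mice and 0.10 and -0.02 in grouped mice.

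Igf1 fell in grouped mice on 3 of 4 probe sets. On 1419519_at it read 10.03, 9.83, 10.26 and 9.68 at 20 weeks, against 10.42, 10.78, 11.11 and 10.53 at 15 weeks, with no overlap. The difference was -0.76 ± 0.16 (SE; limma adjusted p = 0.00562). It was -0.98 on 1434413_at (adjusted p = 0.0126) and -0.99 on 1452014_a_at (adjusted p = 0.00464) by limma. The fourth, 1437401_at, differed by -0.29 ± 0.18 (SE; limma adjusted p = 0.235).

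In isolated mice the Igf1 probe sets did not run 1 way: 1452014_a_at fell by 0.63 (-0.63 ± 0.20, SE; limma adjusted p = 0.0245), while the other 3 differed by -0.18, -0.16 and 0.33 and did not pass. Isolated replicate 1 at 20 weeks decided much of this. Without it, 1437401_at was higher at 20 weeks by 0.61 (limma adjusted p = 6.12e-05) and 1434413_at by 0.22 (limma adjusted p = 0.0345). With the values as deposited, 1437401_at was 0.63 (limma adjusted p = 0.0294) and 1452014_a_at -0.35 (limma adjusted p = 0.159). The probe sets thus kept a common order among arrays of 1 age and disagreed on the step between ages.

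Igfbp4 fell in grouped mice on 4 of 6 probe sets, by 0.46 to 0.60 on the log2 scale (limma adjusted p of 0.00933 to 0.0475), and on the other 2 it differed by -0.11 and -0.16. Of these 4 calls, 1421991_a_at read 9.68, 9.62, 9.95 and 9.27 at 20 weeks, against 10.03, 10.32, 10.46 and 10.10 at 15 weeks. Those groups did not overlap. The calls on 1423756_s_at and 1421992_a_at were lost when any of several single arrays was left out, with differences between -0.58 and -0.31 in those fits. With the values as deposited, 3 of the 4 calls were lost, at -0.37 to -0.24. In isolated mice 0 of 6 Igfbp4 probe sets passed by limma (0 at an unadjusted p under 0.05, which 56.4% of all probe sets reached), at -0.27 to 0.01. Fibroblast markers were negative in 7 of 7 in grouped mice (median -0.47, 2 passing), where 18.4% of all probe sets passed as lower. Macrophage markers were negative there in 7 of 7 (median -0.55, 3 passing). In isolated mice the medians of these fibroblast and macrophage markers were 0.01 and 0.22. Their part in the Igf1, Igfbp4 and Igfbp6 differences was not tested either.

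The receptor and Igf2 moved little. Igf1r rose in grouped mice on 1452982_at and 1428967_at (0.27 and 0.30, limma adjusted p = 0.0151 and 0.0148) and fell on 1452108_at in grouped mice (-0.19, limma adjusted p = 0.0436) and in isolated mice (-0.17, limma adjusted p = 0.0307). With the values as deposited, the difference on 1452108_at was 0.05 in both housings. Its call in isolated mice was also lost with the replicate block and on leaving out any of 6 single arrays (limma adjusted p of 0.0527 to 0.0714). Its call in grouped mice was lost with arrays centred on their medians, with the replicate block and on leaving out any of 7 single arrays (limma adjusted p of 0.0512 to 0.0968). Igf2 on 1448152_at fell in isolated mice (-0.26, limma adjusted p = 0.028), and with the values as deposited the difference was 0.01. That call was also lost with arrays centred on their medians (-0.21, limma adjusted p = 0.0707) and on leaving out any of 5 single arrays (limma adjusted p of 0.0518 to 0.0788). The dim Igf2 probe set, 1415931_at, differed by -0.21 in each housing without passing.

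**Figure D4:**
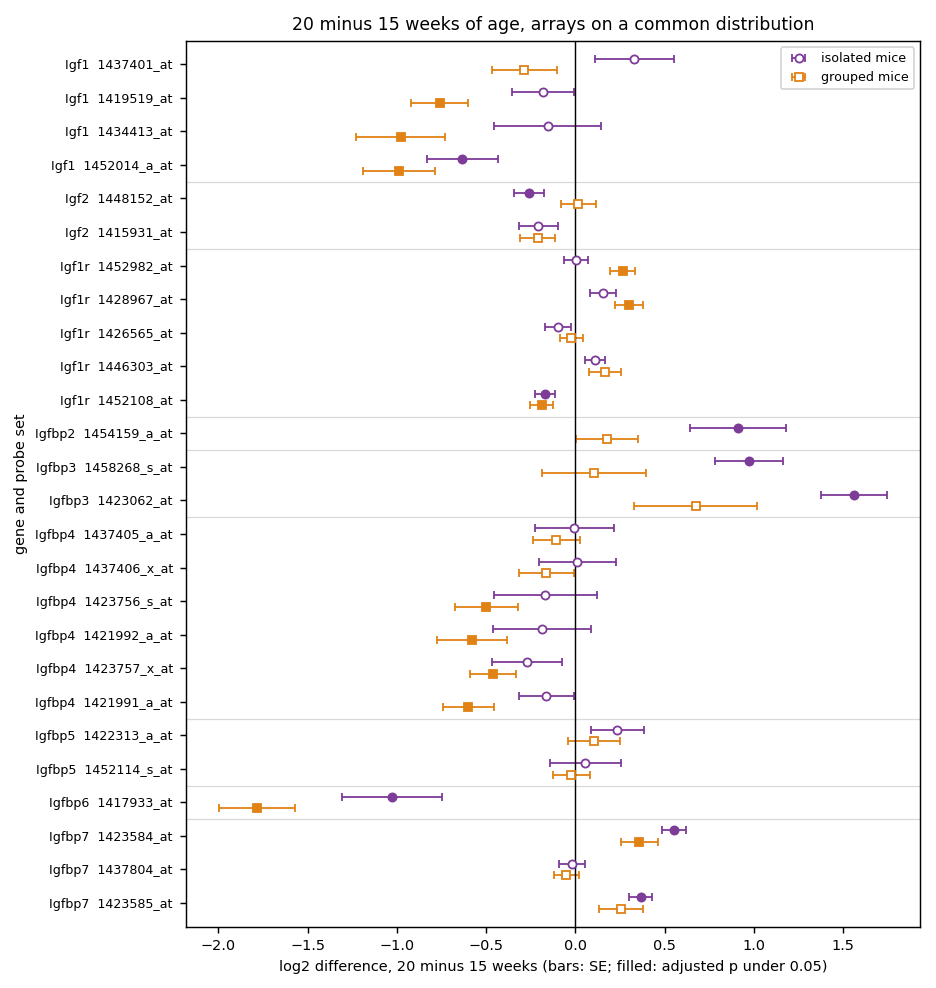
Difference in log2 level, 20 minus 15 weeks, after quantile normalization of all 16 arrays (horizontal axis, bars are SE), for isolated mice (circles) and grouped mice (squares). Filled symbols have an adjusted p under 0.05. Igfbp6 lies lowest at -1.03 in isolated mice and -1.78 in grouped mice, and Igfbp3 highest at 1.56 in isolated mice.

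On the common scale, Igf1 (1437401_at) averaged 10.95 ± 0.56 in isolated and 10.91 ± 0.38 in grouped mice at 20 weeks, and 10.62 ± 0.05 in isolated and 11.20 ± 0.24 in grouped mice at 15 weeks (SD, n = 4 each). The ranges of both 20-week groups reached those of both 15-week groups, so only the 2 ends of the order, both at 15 weeks, stood apart. Igfbp6 averaged 10.34 ± 0.68 in isolated and 9.75 ± 0.51 in grouped mice at 20 weeks, and 11.37 ± 0.21 in isolated and 11.53 ± 0.15 in grouped mice at 15 weeks. Neighbours of the same age overlapped, and the step was between the ages. Igfbp3 (1423062_at) averaged 10.33 ± 0.41 in isolated and 9.75 ± 0.37 in grouped mice at 20 weeks, and 8.77 ± 0.20 in isolated and 9.07 ± 0.80 in grouped mice at 15 weeks. Both 20-week groups lay above every isolated array at 15 weeks, and the wide grouped range at 15 weeks, set by replicate 1, crossed both.

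Genes that supply, release or transmit the IGF signal were set beside the members as 5 lists, of which 40 of 44 genes were measured. In the housing comparisons at 20 and 15 weeks and in the interaction, 0 of 40 passed by limma, and an unadjusted p under 0.05 was reached by 5 at 20 weeks, 10 at 15 weeks and 7 in the interaction. Of all probe sets, 7.88% did so at 20 weeks, 9.71% at 15 weeks and 11.5% in the interaction. At 15 weeks the smallest p of all 40 was that of Socs2, a growth hormone target that damps its receptor, at -0.49 ± 0.08 (SE; limma adjusted p = 0.124), with 9.58 to 9.72 in isolated mice and 10.00 to 10.31 in grouped mice. The groups did not overlap, which also held for Cish of the same list (9.23 to 9.30 in isolated mice, 9.33 to 9.55 in grouped mice). Every isolated array was lower in 3.17% of all probe sets and higher in 2.22%. The smallest p of the other lists at 15 weeks belonged to Pappa, the protease that cleaves Igfbp4 (0.22, adjusted p = 0.376), Mtor, the kinase of growth signalling (0.28, adjusted p = 0.332), Igf2bp1, which binds Igf2 RNA (0.18, adjusted p = 0.489), and Igfals, which joins Igfbp3 in the serum complex (-0.21, adjusted p = 0.533), all by limma.

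At 20 weeks Adam12, a protease that cleaves Igfbp3 and Igfbp5, was the nearest to the threshold, at 0.51 ± 0.07 (SE; limma adjusted p = 0.174), with 10.14 to 10.37 in isolated mice and 9.66 to 9.78 in grouped mice. Every isolated array was above every grouped array, as in 2.02% of all probe sets. The other lists gave Cish (-0.39), a growth hormone and cytokine target, Insr (-0.37), the insulin receptor, Shc1 (0.29), an adaptor of receptor kinases, and Mest (0.27), an imprinted gene, with limma adjusted p of 0.529 to 0.654. For Shc1 too, every isolated array was above every grouped array, narrowly (10.538 to 10.906 in isolated mice, 10.157 to 10.536 in grouped mice). In the interaction the corresponding genes were Socs2 (0.72) and Adam12 (0.74), both with a limma adjusted p of 0.148, then Mtor (-0.45), Insr (-0.40) and Dlk1 (-0.20), an imprinted gene, with limma adjusted p of 0.232 to 0.493.

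With age, 6 of the 40 genes rose and 14 fell in isolated mice, and 5 rose and 14 fell in grouped mice. Those 20 and 19 of 40 stand beside 49.7% of all probe sets in isolated mice and 38.1% in grouped mice. In the growth hormone list, Socs3, an inhibitor of cytokine signalling, rose by 1.39 in isolated mice (10.88 to 11.37 at 20 weeks, 9.64 to 9.86 at 15 weeks) and by 1.23 in grouped mice. Ghr, the growth hormone receptor, fell by 0.83 in isolated and 0.50 in grouped mice, and Stat5a, a STAT factor, fell by 0.63 in isolated and 0.52 in grouped mice. Stat5b of the same list differed by -0.10 in isolated and 0.04 in grouped mice (limma adjusted p = 0.298 and 0.808). Socs2 fell in grouped mice (-0.65; 9.59 to 9.64 at 20 weeks, 10.14 to 10.42 at 15 weeks), and in isolated mice its difference was 0.03 (limma adjusted p = 0.831). Each change called a rise or fall had a limma adjusted p of at most 0.0105.

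Among the other IGF axis genes, Igfals fell by 0.53 in isolated and 0.61 in grouped mice, Insr by 0.71 in isolated and 0.28 in grouped mice, and Igfbpl1, a binding protein relative, by 0.27 in isolated and 0.17 in grouped mice. Of the proteases and their inhibitors, Stc2, a stanniocalcin that blocks pregnancy-associated plasma protein A, fell by 0.98 in isolated mice and 0.73 in grouped mice. Adam9 rose by 0.43 in isolated mice, and its difference in grouped mice was 0.16 (limma adjusted p = 0.231). Adam12 rose by 0.28 in isolated mice and fell by 0.41 in grouped mice (limma adjusted p = 0.0135 and 0.0133). In grouped mice Htra1, a protease of Igfbp5, fell by 0.58 and Pappa rose by 0.38, while in isolated mice they differed by -0.12 and 0.11 (limma adjusted p = 0.161 and 0.474). Each change called a rise or fall had a limma adjusted p of at most 0.029.

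In receptor signalling, 2 of 14 measured genes rose and 7 fell in isolated mice, and 3 rose and 4 fell in grouped mice, where 49.7% of all probe sets passed in isolated and 38.1% in grouped mice. Pik3r1, the regulatory subunit of PI3 kinase, fell by 0.78 in isolated and 0.80 in grouped mice. Akt2 fell by 0.51 in isolated and 0.36 in grouped mice, and Irs1, a substrate of the IGF and insulin receptors, by 0.65 in isolated and 0.50 in grouped mice. Akt1 rose by 0.32 in isolated and 0.30 in grouped mice, and Foxo3, a factor that Akt kinases inactivate, by 0.27 in isolated and 0.37 in grouped mice. Each had a limma adjusted p of at most 0.0111. In the Igf2 list Mest rose by 0.50 and Dlk1 fell by 0.21 in isolated mice, and 0 of 5 passed in grouped mice by limma (1 at an unadjusted p under 0.05). Dlk1 was close to the threshold (limma adjusted p = 0.0439).

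Within each age, some members varied together over the 16 arrays, where values of 1 array share its RNA and scaling. Igf1 and Igfbp4 had the closest relation of any pair (Pearson r = 0.83, Spearman rho = 0.76), followed by Igfbp3 and Igfbp7 (r = 0.71, rho = 0.43) and Igf1 and Igfbp6 (r = 0.69, rho = 0.71). Igfbp4 and Igfbp5 ran opposite (r = -0.62, rho = -0.69), as did Igf1 and Igf1r (r = -0.56, rho = -0.65). Probe sets of 1 gene agreed for Igfbp3 (r = 0.98) and Igfbp4 (0.85 to 0.99), and disagreed for Igf2 (-0.50), Igf1r (-0.25 to 0.70) and Igfbp7 (0.02 to 0.48). Those of Igfbp5 agreed only in part (0.49). Each relation between members used only the highest-reading probe set of each gene.

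Of 9088 brighter genes, those most like Igf1 over the 16 arrays were Ctso (r = 0.95), a cathepsin, Pla2g15 (0.94), a lysosomal phospholipase, and Zhx1 (0.93). Igfbp4 was closest to Vim (0.96), vimentin of mesenchymal cells, Nbl1 (0.93) and Mir22hg (0.92). Igfbp6 was closest to Ogn (0.97), a matrix protein, Cd248 (0.97), a marker of fibroblasts and pericytes, and Emilin2 (0.96). Igfbp3 was closest to Lrrc15 (0.96), Rapgef6 (0.93) and Tbc1d8b (0.92). The best match of each remaining member was Asrgl1 for Igf2 (0.90), Ubap2 for Igf1r (0.88), Eva1b for Igfbp2 (0.86), Septin11 for Igfbp5 (0.90) and Dock8 for Igfbp7 (0.83). These are descriptions chosen as the highest of many correlations.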

How the data were processed

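Biotin-labelled total mammary gland RNA from 16 samples was hybridised to Affymetrix mouse arrays. The deposited log2 values came from RMA in affy, run by the authors, as the submitters' processing notes record without a version. Gene symbols came from the platform annotation and were checked against RefSeq (0 changed). Of 45101 probe sets, 64 controls were left out and 45037 entered limma 3.58.1 (R 4.3.3; lmFit, then eBayes with a trend on intensity). Benjamini-Hochberg adjustment ran over all of them, at a threshold of 0.05. Tables and figures used Python 3.11.15, pandas 2.3.3 and matplotlib 3.10.9. A comparison between 2 groups used their 8 arrays. Housing and interaction used the values as deposited, and age used them after quantile normalization of all 16 arrays. The script was tested on simulated data. Precision depends on the number of arrays, as arrays carry no read depth.

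The members, pathway lists and cell marker lists were chosen with earlier results of these data known. All members are named with every probe set. A pathway gene is represented by its highest-reading probe set, and in each list and comparison up to 4 passing genes with the smallest p are named, or the 1 with the smallest p where none passed. The most similar genes were ranked by Pearson r after centring each age. Marker lists covered adipocytes, fibroblasts, macrophages, luminal and basal epithelium, endothelium, skeletal muscle and keratinocytes. Alternatives were quantile normalization, deposited or median-centred values, 1 probe set per gene, only brighter probe sets, no trend, a robust prior, all 16 arrays in the fit, a Gapdh covariate, a replicate block, and leaving out each array.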

Additional observations from a re-analysis of the deposited data

Results flagged for a closer look

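Each group of 4 arrays was searched for 1 array far from the other 3, in 26 probe sets and 4 groups. Of 104 such groups, 7 met the limit, where chance gives about 5.2. In isolated replicate 1 at 20 weeks, Igf1 read 9.49 on 1419519_at (the others 10.32 to 10.35), 8.85 on 1434413_at (10.31 to 10.45) and 8.96 on 1452014_a_at (9.89 to 10.04). In grouped replicate 4 at 20 weeks, Igfbp7 read 8.64 on 1437804_at (8.79 to 8.82). In isolated replicate 4 at 15 weeks, Igf1r read 8.18 on 1426565_at (8.07 to 8.08) and 7.92 on 1452108_at (7.77 to 7.78). In grouped replicate 1 at 15 weeks, Igfbp3 read 10.16 on 1423062_at (8.50 to 8.70). These are deposited log2 levels.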

How the results depend on the processing

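Of 2126 recomputed member differences, 1919 kept their direction and side of the threshold. A change of sign without passing in either fit was seen in 130, of which 48 were for housing at 20 weeks. With the sign kept, 49 no longer passed and 22 passed only in the alternative. Another 6 changed sign and passed in either the main fit or the alternative. Of these, those of Igf2 on 1448152_at and Igf1r on 1452108_at had passed in the main fit, and the others passed only in the alternative. With the values as deposited, the age difference in isolated mice was 0.01 for Igf2 on 1448152_at (0.0097), 0.05 for Igf1r on 1452108_at (0.0516) and 0.21 for Igfbp7 on 1437804_at. In grouped mice it was 0.21 for Igf1r on 1426565_at (0.208) and 0.05 on 1452108_at (0.0496). Without isolated replicate 1 at 20 weeks, the age difference of Igf1 on 1434413_at in isolated mice was 0.22 (-0.32 to 0.22 leaving out each array in turn).

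Leaving out 1 array gave 0 to 2 member calls for housing at 15 weeks, 6 to 11 for age in isolated mice (9 with all arrays) and 7 to 13 for age in grouped mice (12 with all arrays). With 1 probe set per gene, 5 of 9 members passed for age in isolated mice and 3 of 9 in grouped mice. Igf1 and Igfbp4 were not among those 3. Their highest-reading probe sets, 1437401_at and 1437405_a_at, did not pass in grouped mice in the main fit either (limma adjusted p = 0.235 and 0.552). The falls of Igf1 and Igfbp4 in grouped mice thus depended on the probe set chosen. Over all probe sets, calls for housing at 15 weeks (4) were 8 with 1 probe set per gene, 1 with the Gapdh covariate, 0 on quantile-normalized values, 7 with a robust prior and 0 to 62 leaving out 1 array. For housing at 20 weeks (4) they were 2 with 1 probe set per gene, 11 with all 16 arrays in the fit, 22 with the replicate block and 0 to 192 leaving out 1 array. For the interaction (3) they were 1 without the trend, 1 with brighter probe sets only, 1 with the replicate block, 0 with a robust prior and 0 to 183 leaving out 1 array. For age in isolated mice (22385) they were 9173 with 1 probe set per gene, 11932 with brighter probe sets and 18918 to 22152 leaving out 1 array. For age in grouped mice (17154) they were 7024, 8217 and 12998 to 17160 under the same 3 alternatives. Values as deposited gave 26738 higher and 3681 lower in isolated mice (11815 and 10570 on the common scale) and 28698 calls, 26130 higher and 2568 lower, in grouped mice (8878 and 8276). The cause was not tested.

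Same-numbered arrays did not deviate together in each pair (correlations -0.22 to 0.47, with 1 to 3 of 4 numbers correlating best with their own). No label gives the numbers a shared source, and these values do not settle whether some share one. With the replicate block, Igfbp3 on 1423062_at passed for age in grouped mice (0.67, limma adjusted p = 0.0321) and Igf2 on 1415931_at for age in isolated mice (-0.21, limma adjusted p = 0.0374), Igf1r on 1452108_at no longer passed (limma adjusted p = 0.0606 in isolated and 0.0766 in grouped mice), and no member passed for housing. Few arrays, and dim signal for Igf2 on 1415931_at, limit what could be detected.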
